A study of Drosophila melanogaster with 24 samples.

Results

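Clock neurons of old flies that carried guides against Drp1 were compared with clock neurons of old flies that carried guides against Marf, across all genes of the deposited UMI count table. The 6 libraries compared are the 3 old Drp1-mut and the 3 old Marf-mut libraries out of 24 in the series, chosen by their labels alone. The whole series holds 4 genotypes at 2 ages (a Cas9 control and lines with guides to Drp1, Marf or Opa1), with 3 libraries in each of its 8 groups. Every library is a pool of about 1000 GFP-positive cells sorted from male brains dissected at ZT14, that is 14 h after lights on, and was made by Smart-seq3, which tags the 5' end of each cDNA with a unique molecular identifier (UMI).

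Old Drp1-mut flies were CLK856-Gal4>UAS-Cas9 with UAS-3XgRNA-Drp1 and UAS-eGFP at about 35 days of age. Old Marf-mut flies differed by carrying UAS-3XgRNA-Marf in place of the Drp1 guides. The driver, Cas9, eGFP, sex, age and time of day were shared by both groups. The old Cas9 group, without guides, is given beside the results as a reference. CLK856-Gal4 expresses Cas9 and the guides only where the driver is active, and Cas9 editing can differ from cell to cell. Each group was dissociated once, from 80 to 100 brains, and its 3 libraries are 3 sorts of that cell suspension. P-values over libraries therefore measure the spread between sorts, and a difference between suspensions and a difference between genotypes cannot be told apart in the old comparison.

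Mitochondria divide and join continually. Drp1 is a dynamin-related GTPase that is recruited to the outer membrane and constricts mitochondria until they divide, whereas Marf, the fly mitofusin, joins the outer membranes of neighbouring mitochondria. Loss of the first is known to leave elongated mitochondria and loss of the second fragmented ones, and in neurons both processes bear on how mitochondria reach axons and synapses. The comparison sets guides against a division gene beside guides against a joining gene, in cells of the same driver and age, and these data hold no measure of mitochondrial shape.

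Total UMIs were 1148217, 767438 and 684175 for old Drp1-mut replicates 1, 2 and 3, and 1394517, 1532339 and 1735212 for the old Marf-mut replicates. The groups did not overlap in depth, so depth and genotype cannot be told apart by group. Genes with at least 1 UMI numbered 9081 to 9560 in old Drp1-mut and 10164 to 10417 in old Marf-mut libraries. Levels are given in CPM, a gene's UMIs relative to the total of its library after TMM scaling, which corrects for differences in library composition.

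The labelled cell type was checked against marker genes. Pdf, the neuropeptide of the ventral lateral clock neurons, stood at 5800 to 19900 CPM in old Drp1-mut and 13900 to 18500 CPM in old Marf-mut libraries. The synaptic vesicle gene nSyb was at 1190 ± 110 and 1030 ± 11.8 CPM (SD, n = 3 in each group). The glial identity gene repo was at 9.92 ± 3.92 and 10.9 ± 4.40 CPM, and the photoreceptor opsin gene ninaE had no UMI in old Drp1-mut and at most 0.715 CPM in old Marf-mut libraries. Other photoreceptor transcripts were present: the 15 markers summed to 87 to 232 CPM in old Drp1-mut, 146 to 227 CPM in old Marf-mut and 101 to 104 CPM in old Cas9 libraries, with none of 4 tested called. Among them the ocellar opsin gene Rh2 was at 15.8 ± 4.61 against 47.1 ± 25.4 CPM (log2 fold change of Drp1-mut minus Marf-mut -1.61 ± 0.43, adjusted p = 0.0688 by edgeR's quasi-likelihood test). Against old Cas9, 1 photoreceptor marker was called higher in old Marf-mut, where 1.68% of all genes were called higher. The part of such transcripts in the results below was not tested. The 15 glial markers summed to 740 to 1270 CPM in old Drp1-mut and 894 to 1130 CPM in old Marf-mut libraries, and none of the 11 tested was called. Against old Cas9 (511 to 855 CPM), 2 were called higher in old Marf-mut, beside the same 1.68% of all genes. The 16 fat body and hemocyte markers summed to 299 to 379, 198 to 273 and 230 to 262 CPM in old Drp1-mut, Marf-mut and Cas9 libraries. Of 4 tested, Pxn was called higher at 230 ± 60.3 against 130 ± 21.4 CPM (adjusted p = 0.0209 by edgeR's quasi-likelihood test), as were 2.47% of all genes. That call was lost without old Marf-mut replicate 2 or 3. In these pooled cells, fewer cells of a type and less RNA per cell cannot be told apart.

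Of the targeted genes, Drp1 RNA was lower in the line that carries its guides. Drp1 (chromosome 2L, 2581281 to 2585430, minus strand, overlapped on the other strand by Arpc5) was at 90.6, 99.5 and 67.7 CPM in old Drp1-mut and at 152, 160 and 145 CPM in old Marf-mut libraries. The groups did not overlap, and the log2 fold change, always given as Drp1-mut minus Marf-mut, was -0.81 ± 0.15 (SE, adjusted p = 0.00265 by edgeR's quasi-likelihood test with Benjamini-Hochberg adjustment, as all adjusted p below). Old Cas9 libraries held 161 ± 5.49 CPM of Drp1. The Marf gene (chromosome X, 6365949 to 6370924, plus strand) gave no such difference, with 123, 117 and 140 CPM in old Drp1-mut and 106, 119 and 122 CPM in old Marf-mut libraries. Its log2 fold change was 0.13 ± 0.14 (adjusted p = 0.71), and Marf RNA therefore gives no check of the Marf-mut label. Of the 12 tested genes of mitochondrial division, fusion and transport, Drp1 was the 1 called, and the inner-membrane fusion gene Opa1 had a log2 fold change of -0.15 ± 0.13 (adjusted p = 0.609). The gene y, listed as a construct marker, was at 174 ± 10.9 against 118 ± 9.15 CPM (0.56 ± 0.13, adjusted p = 0.012), a call lost without old Marf-mut replicate 2 or 3. It was at 6.3 ± 2.23 CPM in old Cas9 and called higher in both lines (4.74, adjusted p = 1.52e-11, and 4.18, 2.2e-11). Both lines thus differ from old Cas9 at y as well, and the cause was not tested. The other such marker, w, was not called in these comparisons.

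Across all genes, 305 of 7032 tested (4.34%) were called at an adjusted p under 0.05. Of these, 174 (2.47% of genes tested) were higher and 131 (1.86%) were lower in old Drp1-mut than in old Marf-mut neurons. Most differences were moderate, with a median absolute log2 fold change of 0.758 among called genes, and 52 genes on each side passed a log2 size of 1. The libraries of the groups did not overlap for 303 of the 305 called genes and for 22.1% of all genes tested. Calls and overlap are read from the same 6 libraries, so the first count adds no support to the calls. The median over all genes was -0.01. With total counts in place of TMM, that median moved to -0.155 and 101 genes were called higher and 331 lower, which is 23.4% higher against 57% with TMM. A fit with log2 depth as a covariate called 30 genes. Leaving out old Marf-mut replicate 1, 2 or 3 gave 183, 169 or 194 calls.

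**Figure D1:**
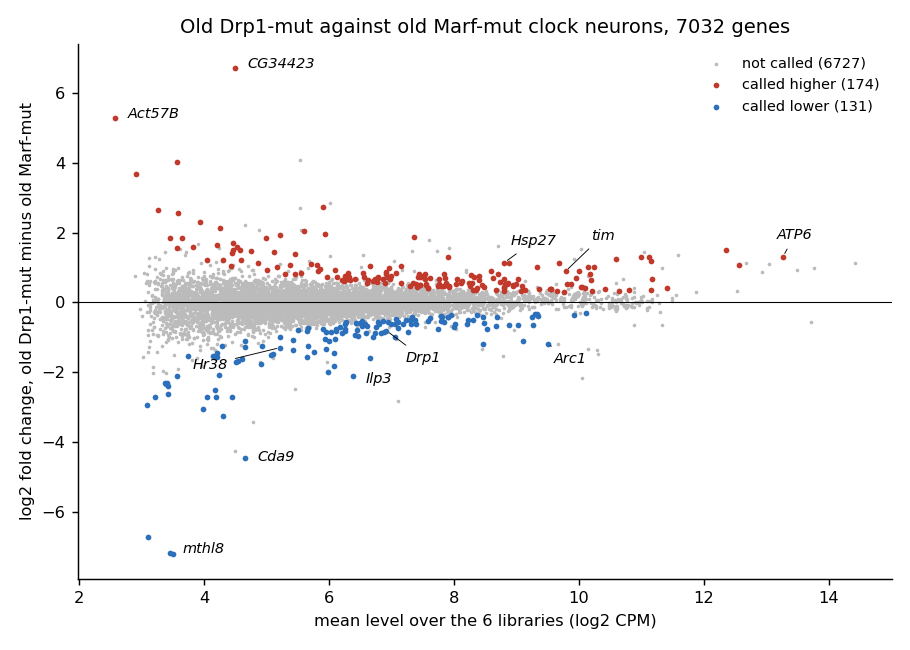
Log2 fold change (old Drp1-mut minus old Marf-mut) against mean level (log2 CPM) for the 7032 genes tested. Red points are the 174 genes called higher, blue points the 131 called lower and grey points the rest, and the called genes cover the whole range of levels.

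The strongest shared pattern was in transcripts encoded by mitochondrial DNA, which were higher in the division mutant throughout. Mitochondrial DNA of the fly encodes 13 proteins, all of them core subunits of respiratory complexes I, III and IV and of ATP synthase. All 13 were tested, 9 were called higher and none lower (against 2.47% and 1.86% of all genes), and their log2 fold changes ran from 0.88 to 1.51 with a median of 1.19. For all 13 genes the old Drp1-mut and old Marf-mut libraries did not overlap, as was so for 22.1% of all genes tested.

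ATP6, a subunit of the proton channel of ATP synthase (mitochondrial genome, 4062 to 4736, plus strand), was at 12300, 16200 and 14800 CPM in old Drp1-mut and at 6200, 6200 and 5100 CPM in old Marf-mut libraries. The groups were far apart, with a 2.48-fold higher level in old Drp1-mut (log2 fold change 1.31 ± 0.14, adjusted p = 0.00999). ND5, a subunit of the proton-pumping arm of complex I (mitochondrial genome, 6409 to 8125, minus strand), was at 2950, 3570 and 3250 against 1530, 1540 and 1220 CPM. Its log2 fold change was 1.19 ± 0.09 (adjusted p = 7.44e-07). ND6, another subunit of complex I, stood at 2700, 3700 and 3390 against 1410, 1390 and 1200 CPM (1.30 ± 0.11, adjusted p = 1.66e-05). The 4 members that were not called were ND4 (1.44 ± 0.24, adjusted p = 0.0522), CYTB (1.14 ± 0.19, 0.0574), COX2 (1.1 ± 0.18, 0.061) and COX1 (0.88 ± 0.15, 0.0519). ATP6 overlaps ATP8, and ND4 overlaps ND4L, so reads of each pair may not have been told apart.

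The old Cas9 libraries lay between the lines. ATP6 was at 9300 ± 28.6 CPM and ND5 at 2010 ± 58.8 CPM there. In the separate comparisons with old Cas9, which share the Cas9 libraries with each other, 12 of the 13 transcripts were called higher in old Drp1-mut and 11 were called lower in old Marf-mut. Of all genes, 0.394% were called in the first of these comparisons (0.263% higher) and 4.58% in the second (1.68% higher and 2.91% lower). Median log2 fold changes were 0.64 and -0.57.

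Summed, the 13 transcripts made up 6.65%, 8.33% and 7.16% of all UMIs in old Drp1-mut and 3.87%, 3.91% and 3.13% in old Marf-mut libraries. Old Cas9 libraries held 5.04% to 5.19%. Depth moved with this share among young libraries too, since the young Drp1-mut libraries held 7.44%, 7.17% and 4.10% at 1318960, 1680324 and 2889269 UMIs. The closest libraries in depth across the old groups, Drp1-mut replicate 1 at 1148217 and Marf-mut replicate 1 at 1394517 UMIs, held 6.65% and 3.87%. With depth as a covariate the median of the 13 was 0.80 and 4 were called. The part of depth in the difference was not tested beyond this. Rows for mitochondrial tRNAs, 21 in a list chosen after its values were seen, summed to 234 to 535 against 141 to 223 CPM. The 7 tested were all positive, with 3 called higher and none lower, against 2.47% and 1.86% of all genes. Of the 3, trnC (14, 24 and 15 against 8, 2 and 8 UMIs) and trnH passed the filter on low counts only through the old Drp1-mut group. These counts therefore add no support. Among untested rows, trnA (2.04 against 2.68 CPM) and trnR (4.26 against 5.35 CPM) went the other way.

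**Figure D2:**
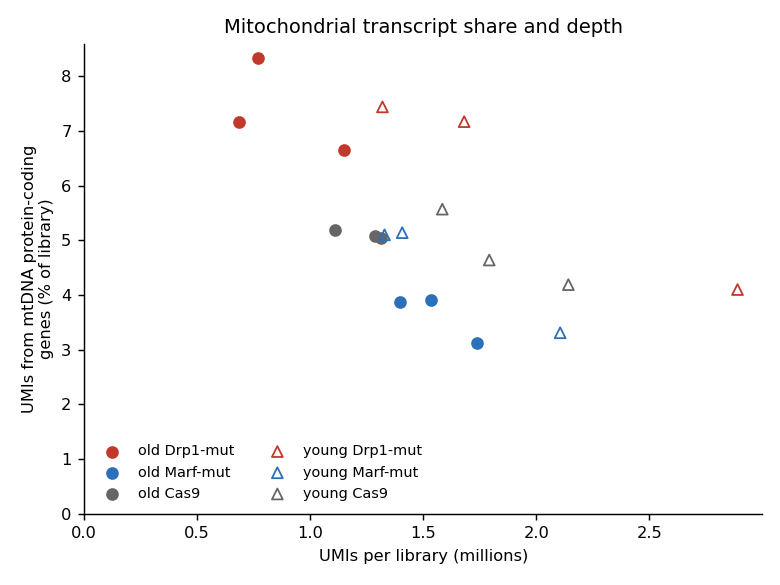
Share of UMIs from the 13 protein-coding genes of mitochondrial DNA (% of library) against UMIs per library. Filled circles are old and open triangles young libraries, and the 3 old Drp1-mut libraries (red, 6.65% to 8.33%) lie above the 3 old Marf-mut libraries (blue, 3.13% to 3.91%) at lower depth.

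Nuclear genes for the respiratory complexes had medians near 0, and their difference from the mitochondrial DNA transcripts was not tested. Of 32 nuclear complex I genes tested, ND-MLRQ, an accessory subunit, was called higher (0.39, adjusted p = 0.0286) and none lower, with a median log2 fold change of -0.04. Of 34 nuclear genes of complexes II to V, 4 were called higher, against 2.47% of all genes, and none lower, with a median of 0.09 that turned to -0.06 with total count scaling. These were ox and UQCR-6.4, small subunits of complex III, cype, a subunit of cytochrome c oxidase, and ATPsynE, the epsilon subunit of ATP synthase. The ox gene was at 355, 466 and 456 against 255, 271 and 295 CPM (log2 fold change 0.64 ± 0.11, adjusted p = 0.00193), and UQCR-6.4 was at 533, 798 and 628 against 383, 421 and 433 CPM (0.66 ± 0.12, 0.0042). Neither gene's groups overlapped. The ND-MLRQ, cype and ATPsynE calls were each lost on leaving out any 1 library but old Drp1-mut replicate 1. With depth as a covariate none of the 34 was called, and ATPsynE had a log2 fold change of -0.05. Transcripts of the 4 genes had a median longest length of 510.5 bases, against 873.5 bases for the 34 tested genes of these complexes. Over all genes, the median was 2524 bases for genes called higher, 1886 for genes called lower and 2225 for genes tested.

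Other mitochondrial groups held few calls, where 2.47% of all genes were called higher and 1.86% lower. Tom7, a small subunit of the outer-membrane import channel, was the 1 called of 14 import genes, at 505, 568 and 577 against 377, 380 and 383 CPM (log2 fold change 0.54 ± 0.09, adjusted p = 0.00172). No gene was called among 72 mitochondrial ribosomal proteins (median -0.12), 12 genes of mitochondrial DNA maintenance and transcription (-0.26), 21 genes of the tricarboxylic acid cycle (-0.07) and 27 genes of mitophagy and autophagy (0.06). The mitochondrial chaperones and proteases had 1 lower call of 12, Hsp60A, the matrix chaperonin, at 570 ± 23.2 against 713 ± 21.4 CPM (-0.32 ± 0.09, adjusted p = 0.0492). Chchd3, a gene of the cristae-organising complex, was the 1 lower call of 10 cristae and prohibitin genes (-0.39 ± 0.11, adjusted p = 0.0495). The Hsp60A call was lost on leaving out any 1 of the 6 libraries, and the Chchd3 call without old Drp1-mut replicate 1 or 3 or any old Marf-mut library.

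Heat shock genes were higher in old Drp1-mut neurons. These chaperones hold and refold damaged proteins in the cytosol under the control of the factor Hsf. Of 20 tested, 10 were called higher and none lower, against 2.47% and 1.86% of all genes. Their median log2 fold change was 0.79. The 10 calls include the Hsp70 copies Hsp70Ab, Hsp70Ba and Hsp70Bbb. Such copies are near identical and therefore uncertain one by one, so their calls may not be separate results. For this reason the Hsp70 copies were summed over 6 genes. The sum was 4940, 5590 and 5710 CPM in old Drp1-mut and 2860, 2590 and 2970 CPM in old Marf-mut libraries, with a log2 fold change of 0.95 ± 0.07 (adjusted p = 1.53e-07). Old Cas9 libraries held 5700 ± 447 CPM, close to the Drp1-mut level.

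Of the small heat shock genes, Hsp27 and Hsp26 were called. Hsp27 (chromosome 3L, 9384063 to 9385694, plus strand) was at 662, 640 and 617 against 274, 302 and 295 CPM, a 2.21-fold difference (log2 fold change 1.14 ± 0.09, adjusted p = 4.01e-07). Its old Cas9 level was 614 ± 40.6 CPM. Hsp26 (chromosome 3L, 9376418 to 9377427, minus strand) was at 1320, 1410 and 1360 against 728, 727 and 765 CPM (0.89 ± 0.08, adjusted p = 1.01e-06). Neither gene's groups came near to overlapping. Hsp68, an Hsp70 relative, stood at 669 ± 89.8 against 309 ± 56.0 CPM (1.12 ± 0.13, adjusted p = 9.86e-05), and stv, a co-chaperone of Hsp70, at 245 ± 31.0 against 140 ± 22.0 CPM (0.80 ± 0.13, adjusted p = 0.000803). The constitutive Hsc70-4 was called with a small difference (0.30 ± 0.09, adjusted p = 0.0495), and the genes for Hsp83 (0.24 ± 0.10, adjusted p = 0.195) and Hsf (-0.13 ± 0.18, adjusted p = 0.798) were not called. The small heat shock genes Hsp23 (0.77 ± 0.25, adjusted p = 0.221) and l(2)efl (-1.71 ± 0.49, adjusted p = 0.161, the lowest value of the list) were not called and had opposite signs. Against old Cas9, no heat shock gene was called in old Drp1-mut and 15 were called lower in old Marf-mut neurons. With depth as a covariate 4 of the 20 were called, with a median of 0.75. Other stress programmes held few calls. Of 17 ATF4 stress genes, Thor, a translation repressor, was called higher (158 ± 52.9 against 88.5 ± 6.35 CPM) and Nmdmc, a mitochondrial folate enzyme, lower (26.5 ± 10.6 against 54.7 ± 18.0 CPM). Neither call was made when old Drp1-mut replicate 1 or 2 or old Marf-mut replicate 1 or 3 was left out, nor for Thor without old Marf-mut replicate 2. The gene crc, which encodes the fly ATF4 itself, had a log2 fold change of -0.04 ± 0.10 (adjusted p = 0.885).

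**Figure D3:**
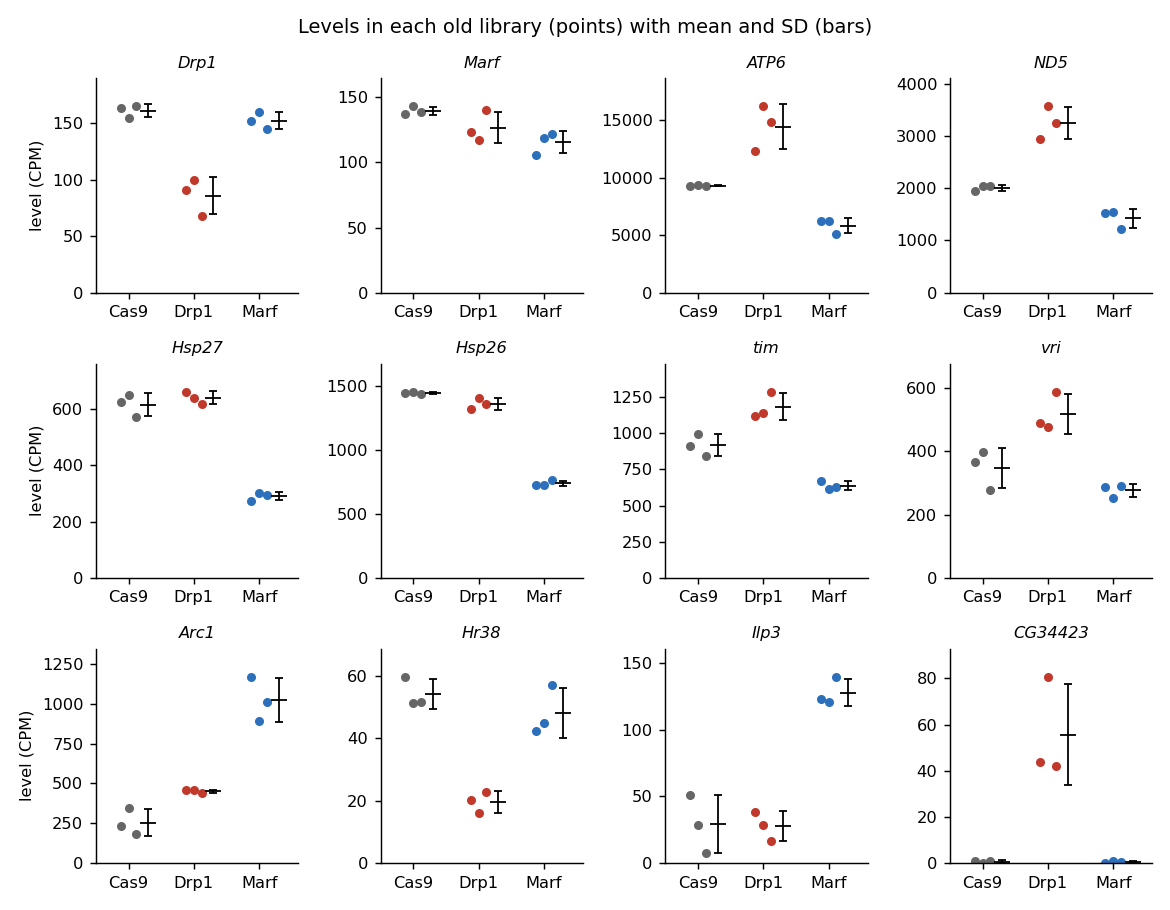
Levels (CPM) of 12 genes in each old Cas9 (grey), old Drp1-mut (red) and old Marf-mut (blue) library, with the mean and SD of 3 libraries beside the points. Hsp27 and Hsp26 were near their Cas9 levels in Drp1-mut and lower in Marf-mut, ATP6 and ND5 had Cas9 between the lines, and Ilp3 was high in Marf-mut.

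Core clock transcripts were higher in old Drp1-mut than in old Marf-mut neurons at ZT14. The fly clock is a feedback loop in which Clk and cyc activate per and tim, whose proteins return to repress them, while vri and Pdp1 form a second loop on Clk. Of 10 clock genes tested, 6 were called higher and none lower, against 2.47% and 1.86% of all genes. Their median log2 fold change was 0.72. The tim gene (chromosome 2L, 3493986 to 3508119, minus strand) was at 1120, 1140 and 1290 against 671, 613 and 630 CPM (0.90 ± 0.09, adjusted p = 2.2e-06). The vri gene (chromosome 2L, 5288944 to 5311223, plus strand), a repressor of Clk, was at 489, 477 and 590 against 287, 254 and 292 CPM (0.91 ± 0.11, adjusted p = 2.08e-05). Both genes separated the groups completely. Pdp1, an activator of Clk, was at 1520 ± 304 against 868 ± 11.4 CPM (0.81 ± 0.11, adjusted p = 0.000322). The photoreceptor protein gene cry was at 414 ± 39.7 against 252 ± 24.4 CPM (0.72 ± 0.11, adjusted p = 0.000423), and the clock repressor gene cwo at 100 ± 4.08 against 59.4 ± 11.2 CPM (0.77 ± 0.17, adjusted p = 0.00943). The kinase gene sgg was also called (0.47 ± 0.12, adjusted p = 0.0226).

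The remaining clock genes were not called. For per, the library values were 84.2, 83.6 and 214 against 63.6, 48.1 and 109 CPM, so replicate 3 of each line was high and the groups overlapped (0.73 ± 0.56, adjusted p = 0.622). Clk (0.36 ± 0.23, adjusted p = 0.494) and cyc (-0.27 ± 0.22, adjusted p = 0.592) did not separate the groups. Old Cas9 levels of tim (917 ± 76.1 CPM) and vri (347 ± 62.3 CPM) were between the lines. No clock gene was called in old Drp1-mut against old Cas9 and 2 were called lower in old Marf-mut. With depth as a covariate the median of the 10 clock genes was 0.24 and none was called. The cwo call was lost without old Marf-mut replicate 2 or 3.

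Activity-regulated genes were lower in old Drp1-mut neurons. These are genes that neurons switch on after firing or other strong stimuli. Of 8 tested, 4 were called lower and none higher, against 1.86% and 2.47% of all genes. Their median log2 fold change was -0.71. Arc1, which encodes a capsid-forming protein that carries RNA between cells, was at 455, 456 and 437 against 1170, 893 and 1010 CPM. The Drp1-mut libraries were nearly equal and all below the Marf-mut ones, with a log2 fold change of -1.18 ± 0.10 (adjusted p = 6.27e-07). Both lines were above the old Cas9 level of 253 ± 86.2 CPM. Arc2, its neighbour and relative, was at 65, 62 and 98.3 against 149, 128 and 131 CPM (-0.88 ± 0.17, adjusted p = 0.0031).

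The nuclear receptor gene Hr38 was at 20.1, 15.9 and 22.6 against 42.2, 44.9 and 57.0 CPM (-1.30 ± 0.25, adjusted p = 0.00377). Its old Cas9 level was 54.1 ± 4.82 CPM, so there the Marf-mut line was the one near the control. Against old Cas9, 1 of the 8 genes was called lower in old Drp1-mut and 2 were called higher in old Marf-mut neurons. The Fos gene kay was at 46.2 ± 9.52 against 81.2 ± 3.78 CPM (-0.84 ± 0.19, adjusted p = 0.0102) and lost its call without old Drp1-mut replicate 1 or old Marf-mut replicate 3. The transcription factor gene sr, a further marker of activity, was not called (-0.58 ± 0.24, adjusted p = 0.215). With depth as a covariate Arc1 was the 1 member still called (-1.22, adjusted p = 0.00925).

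**Figure D4:**
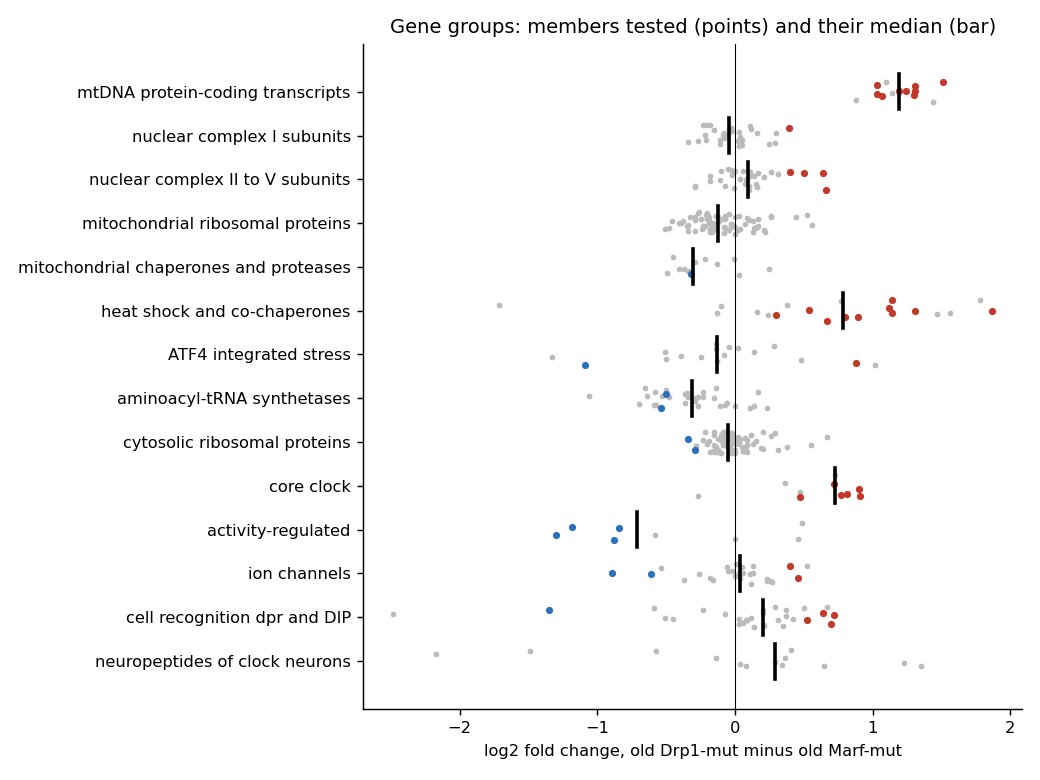
Log2 fold change (old Drp1-mut minus old Marf-mut) of each tested member of 14 gene groups, with called members in red (higher) or blue (lower), others in grey and the group median as a black bar. The 13 mitochondrial DNA transcripts, the heat shock genes and the core clock genes have medians of 1.19, 0.79 and 0.72, and the activity-regulated genes -0.71.

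Genes of neuronal signalling moved singly, where 2.47% of all genes were called higher and 1.86% lower. VGlut, the vesicular glutamate transporter, was at 384, 446 and 391 against 243, 271 and 192 CPM (0.80 ± 0.12, adjusted p = 0.000559), and Tdc2, the neuronal enzyme of tyramine and octopamine synthesis, at 432, 450 and 440 against 321, 246 and 217 CPM (0.76 ± 0.12, adjusted p = 0.00112). Both separated the groups and were the 2 calls among 14 transmitter synthesis and transport genes. Of 31 transmitter receptors, 1 was called higher and 1 lower, and both are dopamine receptors. Dop2R was higher at 78.0 ± 6.69 against 41.5 ± 2.50 CPM (0.91 ± 0.18, adjusted p = 0.0042). DopEcR, which also responds to ecdysone, was lower at 179 ± 42.5 against 267 ± 15.7 CPM (-0.55 ± 0.14, adjusted p = 0.0284), a call lost without old Drp1-mut replicate 2 or any 1 of the old Marf-mut libraries. Of 27 ion channel genes, SK and unc80 were called higher and tipE and SLO2 lower. The sodium channel subunit gene tipE was at 86.0, 70.7 and 77.3 against 139, 170 and 131 CPM (-0.89 ± 0.15, adjusted p = 0.00146), and 1 of the 4 channel calls was left without old Drp1-mut replicate 2 or old Marf-mut replicate 2 or 3. Of 30 dpr and DIP genes, which encode paired surface proteins of synaptic recognition, 4 were called higher and 1 lower. DIP-epsilon was lower at 23.8, 43.3 and 33.8 against 73.6, 110 and 67.0 CPM (-1.35 ± 0.25, adjusted p = 0.00355), and dpr12 was higher at 316 ± 28.9 against 222 ± 15.3 CPM (0.52 ± 0.11, adjusted p = 0.00527). Without old Drp1-mut replicate 2 or 3 these 5 calls were 3, and without any 1 of the old Marf-mut libraries they were 2. DIP-zeta, singled out after its values were seen, had the lowest value of the list but was not called (-2.48 ± 0.62, adjusted p = 0.109). It was at 21.1, 8.65 and 0 against 69.3, 84 and 46.4 CPM, and in young flies it was called lower (-1.43 ± 0.18, adjusted p = 0.00304).

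None of the 13 neuropeptide genes of clock neurons was called, and several varied widely within a line. CNMa was the closest, at 1220, 1220 and 1780 against 544, 486 and 769 CPM with no overlap (1.23 ± 0.25, adjusted p = 0.0773). Pdf was at 19900, 7720 and 5800 against 18500, 17400 and 13900 CPM (-0.57 ± 0.56, adjusted p = 0.71). Dh44, a diuretic hormone, was at 459, 415 and 295 against 2500, 434 and 2390 CPM and was not called (-2.17 ± 0.78, adjusted p = 0.297). Among hormones of other neurosecretory cells the scatter was larger still, as for Capa at 652, 829 and 9.67 against 3150, 279 and 8.38 CPM.

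The insulin-like peptide gene Ilp3 was the 1 call among 17 such hormones. Ilp3 (chromosome 3L, 9801298 to 9802120, minus strand) was at 38.4, 28.8 and 16.1 against 123, 121 and 140 CPM, a 4.33-fold lower level in old Drp1-mut (log2 fold change -2.11 ± 0.21, adjusted p = 2.01e-06). The old Cas9 level was 29.0 ± 21.8 CPM, with libraries at 51.1, 28.4 and 7.5 CPM. The Marf-mut libraries were above all of these, but Ilp3 was not called there. Its log2 fold change of old Marf-mut minus old Cas9 was 2.09 ± 0.49 (adjusted p = 0.122). The gene overlaps CG32052 on the other strand, and whether counting used strand is not given in the sources used here. Ilp2 and Ilp5, which insulin-producing cells of the brain secrete together with Ilp3, were not called (-2.83 ± 1.12, adjusted p = 0.342, and -3.42 ± 1.23, adjusted p = 0.286). Ilp2 was at 4.58, 93.7 and 6.44 against 385, 172 and 133 CPM. The part of insulin-producing cells among the sorted cells in these differences was not tested.

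Genes of protein synthesis held few calls, where 1.86% of all genes were called lower and 2.47% higher. Of 32 aminoacyl-tRNA synthetases, which charge tRNAs with amino acids, 2 were called lower and none higher with a median of -0.31, and 28 of the 32 had negative values against 3586 of 7032 genes. The calls were ThrRS (-0.50 ± 0.13, adjusted p = 0.0273) and TyrRS (-0.54 ± 0.15, adjusted p = 0.0415), and 1 or none was left on leaving out any 1 library, and none with DESeq2. The eIF3 complex, which readies the ribosome for initiation, was looked up after its values were seen. Of its 13 tested subunits all were negative and 4 were called lower, and its summed level was 2660 to 2680 CPM in old Drp1-mut against 3450 to 3560 CPM in old Marf-mut libraries. Among them, eIF3m was at 344, 353 and 253 against 513, 520 and 488 CPM (-0.67 ± 0.12, adjusted p = 0.00157). Cytosolic ribosomal proteins had 2 lower calls of 84 and a median of -0.05. That count was 31 with total count scaling, 8 (7 of them higher) without old Drp1-mut replicate 1, 1 (higher) without old Drp1-mut replicate 2 or old Marf-mut replicate 3, and 0 without old Marf-mut replicate 1 or 2.

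The largest single differences were in genes of low level. CG34423 had 48, 56 and 26 UMIs in old Drp1-mut and 0, 1 and 1 UMIs in old Marf-mut libraries, or 55.5 ± 21.9 against 0.400 ± 0.349 CPM (log2 fold change 6.72 ± 0.54, adjusted p = 4.01e-07). The old Cas9 level was 0.574 ± 0.503 CPM, so this gene was high in the Drp1-mut line alone of the 3. In the other direction CG14292, singled out after its values were seen, had no UMI in any old Drp1-mut library and 17, 26 and 32 UMIs in old Marf-mut libraries (at least 12.7-fold lower, with 3 counts as the limit of the whole Drp1-mut group, adjusted p = 0.000632). The gene mthl8, of the methuselah-like receptor family (chromosome 3L, 22428 to 26308, plus strand), had no UMI in any old Drp1-mut library and 16, 38 and 18 UMIs in old Marf-mut libraries. By the same limit it was at least 12.2-fold lower (adjusted p = 0.00224), and its old Cas9 level was higher than both at 51.8 ± 5.07 CPM. The gene spartin, the fly homologue of a human hereditary spastic paraplegia gene, was at 38.4, 30.3 and 40.3 against 12.2, 9.62 and 11.7 CPM (1.70 ± 0.29, adjusted p = 0.00129).

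The rule for naming by fold, which leaves out genes with only a CG or CR number and noncoding RNA, gave 10 genes in each direction. Those higher were TwdlW, Hsp70Bbb, spartin, Lgr1, ATP8, dmrt99B, HLH4C, ATP6, ND4L and Hsp70Ba, with log2 fold changes from 2.04 down to 1.31. TwdlW, of a family of cuticle proteins, was at 91.5, 99.5 and 62.8 against 14.3, 17.3 and 29.6 CPM (2.04 ± 0.26, adjusted p = 9.86e-05), and its old Cas9 level of 111 ± 4.84 CPM was near the Drp1-mut one. Those lower were mthl8, Cda9, Sgsh, sv, whe, Tsp42Ed, Cpr65Az, PCNA, Ilp3 and twit. Cda9, a chitin deacetylase-like gene, was at 0.915, 2.88 and 1.61 against 42.9, 46.2 and 28.5 CPM (-4.46 ± 0.48, adjusted p = 7.09e-06). Sgsh, a lysosomal sulfatase, was at 2.54 ± 1.76 against 28.3 ± 9.83 CPM (-3.26 ± 0.49, adjusted p = 0.000423), and twit, a small secreted Ly6-type protein, at 18.3, 21.6 and 32.2 against 95.8, 93.0 and 90.5 CPM (-2.0 ± 0.21, adjusted p = 5.72e-06). The dmrt99B call was lost without old Drp1-mut replicate 1 or 2 or old Marf-mut replicate 2 or 3. The call of PCNA, the sliding clamp of DNA replication, at 3.02 ± 1.49 against 14.9 ± 6.49 CPM, was lost without any 1 of the old Drp1-mut libraries. The Hsp70Bbb call was lost without old Drp1-mut replicate 2 or old Marf-mut replicate 2, and the ATP8 call without old Drp1-mut replicate 3 or old Marf-mut replicate 2.

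Genes of other tissues also differed, and are given as lists chosen after their values were seen. Act57B, a muscle actin, was at 9.15, 11.5 and 17.7 against 0, 0 and 0.558 CPM (5.31 ± 0.90, adjusted p = 0.00127). The 19 muscle genes looked up summed to 55.8 to 112 CPM in old Drp1-mut and 23.7 to 30.7 CPM in old Marf-mut libraries. Both that could be tested were called higher, as were 2.47% of all genes. Digestive enzymes of the gut, 32 genes, summed to 97.0 to 169 against 42.3 to 62.2 CPM. Of 3 tested, 2 were called higher, alphaTry with 18, 8 and 10 against 1, 2 and 2 UMIs among them. Act57B and alphaTry passed the filter on low counts only through the old Drp1-mut group, where they were high. Counts of tested and called members therefore add no support here. In the young Drp1-mut libraries the digestive enzymes summed to 92.1, 203 and 5590 CPM in order of size. There alphaTry was at 864, 24.6 and 13 CPM in replicates 1, 2 and 3. The part of such transcripts in the other differences was not tested.

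The young libraries show how far the same contrast was present at about 15 days. Young Drp1-mut against young Marf-mut gave 33 calls of 7178 genes (0.46%), with 632 genes under an unadjusted p of 0.05. Of the 33 called genes, 18 were called in old flies too. Of the 305 genes called in old flies, 295 were tested in young ones and 236 had the same sign there. The share of same signs over all genes is not given, so this count has no reference. The 13 mitochondrial DNA transcripts had a median log2 fold change of 0.53 in young flies with none called, the heat shock genes 0.15 with 1 called, and the core clock genes 0.20 with none called. A call at 1 age and not at the other does not show a difference between ages, which was tested directly.

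That test, of the old difference minus the young difference over 12 libraries, called 4 of 7384 genes (0.0542%), 3 (0.0406%) with a higher and 1 (0.0135%) with a lower value in old flies, with 567 under an unadjusted p of 0.05. Hsp27 had the smallest p. In young flies it was at 449 CPM in Drp1-mut and 436 CPM in Marf-mut, and in old flies at 640 and 290 CPM, a change of 1.11 in the log2 fold change (adjusted p = 0.00566). Hsp70Ba changed by 1.64 (adjusted p = 0.0126), with 203 and 253 CPM in young and 357 and 144 CPM in old flies, though as a copy of a near-identical family it is uncertain by itself. Act57B changed by 7.51 (adjusted p = 0.0129) on 0.685 and 2.96 CPM in young flies. Cda9 changed by -3.91 (adjusted p = 0.0162), with 12.7 and 18.6 CPM in young and 1.80 and 39.2 CPM in old flies. Leaving out old Drp1-mut replicate 2 or 3 left 1 call, leaving out old Marf-mut replicate 1 or 2 or young Marf-mut replicate 3 left 2, and leaving out young Drp1-mut replicate 2 gave 7.

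**Figure D5:**
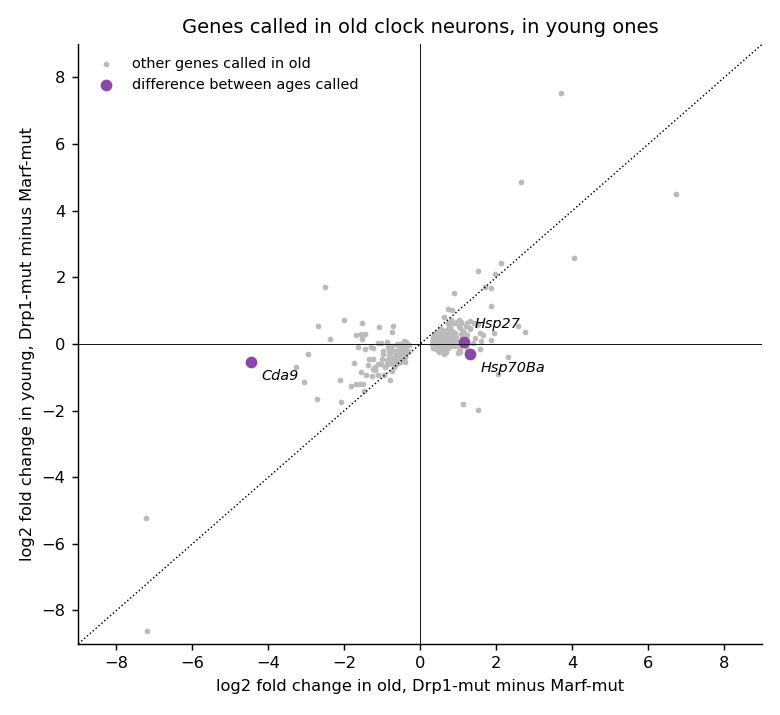
Log2 fold change of Drp1-mut minus Marf-mut in old (horizontal) and young flies (vertical) for the 295 genes called in old flies and tested in young ones, with a dotted line of equality. Of these, 236 have the same sign at both ages, a count given without a reference over all genes. Purple points mark 3 of the 4 genes whose difference changed with age, since Act57B was not tested in young flies.

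Counts were also summed over the 3 libraries of each suspension, and the 8 sums of the series were fitted by genotype and age, which left 3 residual degrees of freedom. For Drp1-mut against Marf-mut it called 52 of 8707 genes (0.597%), 26 in each direction, with 856 under an unadjusted p of 0.05. Of these, 34 were also called in the old libraries, which are among its data, with the same sign for all 34. It called CG34423 (5.41, adjusted p = 0.00338), spartin (1.72, 0.0039), Drp1 (-0.69, 0.0464), Arc1 (-0.94, 0.0357), tipE (-0.76, 0.0367) and vri (0.72, 0.0496). The heat shock gene Hsp23 (0.65, adjusted p = 0.0496), the co-chaperone gene stv (0.77, 0.05 as rounded) and DIP-zeta (-1.77, 0.0125) were called by it too. It also called mthl8 (adjusted p = 0.00338), which had no UMI in any young Drp1-mut library either and 25.7 CPM in young Marf-mut ones. Not called in this fit were ATP6 (0.87, adjusted p = 0.521), ND5 (0.84, 0.447), Hsp27 (0.58, 0.635), Hsp26 (0.52, 0.309), tim (0.57, 0.299) and Ilp3 (-1.71, 0.144). Its smallest p-values included genes of other tissues, such as the gut protease gene Jon99Cii, at a mean of 9.68 CPM in old Drp1-mut libraries. In young Drp1-mut replicates 1, 2 and 3 Jon99Cii was at 657, 31.2 and 6.04 CPM, so its young value rests mainly on replicate 1. Without the young Drp1-mut, the young Marf-mut or the old Marf-mut suspension the fit on sums called 24, 10 or 27 genes.

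A few more genes called in both fits are given here, chosen after their values were seen. The gene jus, whose loss makes flies prone to seizures, was at 215 ± 20.4 against 493 ± 31.0 CPM in old flies (-1.19 ± 0.11, adjusted p = 7.44e-07). Ace, the acetylcholinesterase that clears acetylcholine from synapses, was at 290 ± 3.72 against 437 ± 11.1 CPM (-0.59 ± 0.09, adjusted p = 0.000842). AnxB9, an annexin, was at 48.1 ± 3.28 against 146 ± 8.09 CPM (-1.58 ± 0.15, adjusted p = 1.67e-06). For all 3 the old Cas9 level, at 365, 315 and 83.1 CPM, was between the lines.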

How the data were processed

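The data are counts, whole UMIs per gene and library, as deposited by the authors for 24 libraries and 15610 genes, of which 527 had no UMI. The submitters' processing notes name STAR, DESeq2 and the build dm6. The sources used here give no versions, annotation or rule for shared or overlapping reads. The deposited comparison tables, each of a mutant against Cas9, were not used.

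In R 4.3.3, edgeR 4.0.16 fitted the 6 old libraries (filterByExpr, TMM, robust quasi-likelihood F test), the 12 Drp1-mut and Marf-mut libraries for the difference between ages, and 8 suspension sums. The SE is the log2 fold change divided by the square root of F. Alternatives were DESeq2 1.42.0 as test or size factors, total counts, no filter, thinning to 684175 UMIs, depth as a covariate, a replicate block, other sample sets and omissions. Summed Hsp70 copies were an alternative chosen after seeing the data. Positions come from Ensembl release 115 on genome release 6, and 15000 genes matched by name.

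Members and gene lists were chosen with earlier results of these data known. Named genes are the targets, the 10 largest non-overlapping folds each way with at least 20 UMIs on average in the higher group (leaving out CG or CR numbers and noncoding RNA), up to 4 called members per list by p, set clock and stress genes, and the 5 smallest p of the other fits. On simulated counts the old comparison recovered 70% of 2-fold and 97% of 4-fold changes, with 7 false calls of 174. These counts had the spread between sorts and no difference between suspensions, so the rates do not cover the latter. Same-numbered old libraries showed no clear shared deviation, which does not exclude a pairing.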

Additional observations from a re-analysis of the deposited data

Results flagged for a closer look

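Results stand here because the difference between Drp1-mut and Marf-mut itself differed between old and young flies, by the interaction test over 12 libraries. This held for 4 genes. The change in log2 fold change from young to old was 1.11 for Hsp27, 1.64 for Hsp70Ba, 7.51 for Act57B and -3.91 for Cda9. Act57B rests on 10, 8 and 11 UMIs in the old Drp1-mut libraries and 0, 0 and 1 in the old Marf-mut ones.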

How the results depend on the processing

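The 305 calls of the old comparison became 484 with no filter on low counts and 30 with log2 depth as a covariate. Leaving out 1 library gave 169 to 353. DESeq2 gave 228 calls, thinning 225 and total count scaling 432. The 4 calls of the difference between ages became 143 with no filter, 14 with DESeq2 and 2 after thinning, and 1 to 7 on leaving out a library. The 52 calls on suspension sums became 161 with no filter and 103 with DESeq2, and 10 to 45 on leaving out a suspension. A group left with 2 libraries or 1 suspension was assumed to vary like the others. With depth as a covariate ATPsynE (-0.05) and dpr6 (-0.06) reversed. Of 70 called genes named by rule, 43 were called in all 6 omissions and 9 in these and all other settings that gave a value: ATP6, ND5, ND6, Hsp70Ab, Hsp27, Hsp26, Arc1, Cda9 and CG34423. The replicate number as a block gave 289 calls in the old comparison and 40 in the difference between ages. Deviations of same-numbered old libraries correlated at -0.04, -0.05 and 0.12, and those of differently numbered ones at -0.07 to 0.12. With 3 libraries per group these values cannot exclude a pairing by number, and young libraries were not examined. Depth separates the groups fully, so it limits every result here. The cause of these changes was not tested.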
